A study of Homo sapiens with 9 samples.

Results

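Aminoacyl-tRNA synthetases are the enzymes that attach each amino acid to its own tRNA. The 36 genes described here are 20 whose enzymes work in the cytosol and 16, with names that end in 2, whose enzymes work in mitochondria. They were taken by exact match of the gene name in the deposited table, with the older symbols of that table (AARS, not AARS1), and are 36 of its 58735 genes. Levels are in FPKM (fragments or reads scaled by the authors to exon length and a size factor per library), and all 36 averaged 0.5 FPKM or more, the minimum for testing. RNA was sequenced from H1299, an established lung adenocarcinoma cell line. Vector cells had received the lentiCRISPR v2 plasmid by lentivirus and are labelled wild type. The KO1 and KO2 cells are each 1 clone grown from a single cell by limited dilution after CRISPR editing of BCKDK, the kinase that inhibits breakdown of branched-chain amino acids. Each group has 3 libraries. Vector is not described as clonal, so editing and cloning cannot be told apart, and for the knockout in general n is 2 clones. Whether the libraries within a group are separate cultures is not stated in the labels, so each p-value measures only the spread between libraries, which may be technical.

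Every protein chain draws on charged tRNA, and cells keep separate enzyme sets for the cytosolic and the mitochondrial ribosomes, both coded in the nucleus. Glycyl- and lysyl-tRNA synthetase (GARS and KARS) serve both places from 1 gene each. When uncharged tRNA builds up, the kinase GCN2 phosphorylates eIF2, translation of the transcription factor ATF4 goes up, and ATF4 with a C/EBP partner switches on genes of amino acid supply through the C/EBP-ATF response element. Many cytosolic synthetase genes are textbook members of that response, whereas few mitochondrial ones are.

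The response element was searched in the promoters of the members because many cytosolic synthetases are known members of the ATF4 response. RefSeq promoter sequence (build GRCh38.p14, 250 bases before to 50 after a start) was at hand for 30 members. The letters TGATGNAA, on either strand, were in the promoters of 7 of 16 cytosolic and 1 of 14 mitochondrial members. Each matched stretch is shown 5′ to 3′ on the gene's own strand, in 30 bases, with the match in capitals.
AARS: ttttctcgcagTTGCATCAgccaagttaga
CARS: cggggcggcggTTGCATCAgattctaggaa
GARS: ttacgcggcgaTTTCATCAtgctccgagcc
IARS: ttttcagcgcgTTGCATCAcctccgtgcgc
MARS: gccggttccggTTGCATCAgcgagggattc
NARS: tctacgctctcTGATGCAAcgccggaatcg
TARS: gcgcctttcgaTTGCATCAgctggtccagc
YARS2: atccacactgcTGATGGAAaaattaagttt
The stretches of AARS (chr16:70289675-70289704), CARS (chr11:3057407-3057436), IARS (chr9:92293692-92293721), NARS (chr18:57621804-57621833) and YARS2 (chr12:32756076-32756105) lie on genes of the minus strand. Those of GARS (chr7:30594834-30594863), MARS (chr12:57488053-57488082) and TARS (chr5:33440956-33440985) lie on genes of the plus strand. In 5 of the 7 cytosolic matches (AARS, CARS, IARS, MARS and TARS) the letters were the same TTGCATCA. NARS held their reverse complement, so 6 of 7 shared 1 core, and GARS differed from it. Counted from the start site of the entry that held it, the match began close by in CARS (-2), GARS (-33), IARS (-13), MARS (-4), NARS (15) and TARS (3). It began farther upstream in AARS (-187) and YARS2 (-197). CARS, GARS and TARS each had another promoter entry, for another start, without the letters. Counted per gene in the same way, 1217 of 27305 genes in RefSeq held the letters (4.46%), and per promoter 3.62% of 35116. A match is a run of letters and does not show that a factor binds there.

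The libraries held 16002212 to 17090445 reads, recovered from FPKM and exon length. BCKDK, the edited gene, stood at 13.7, 12.9 and 17.5 FPKM in Vector, at 1.67 to 2.06 in KO1 and at 0.287 to 0.628 in KO2. The libraries Vector replicate 3 and, in KO2, replicate 3 differed most from their groups, with a chi-square per degree of freedom of at least 44.3 against the other libraries of the group and at most 6.84 between any other pair of a group. Counts of members are also given without both of these libraries, called apart below. Markers of other cell types (PTPRC, CD68, PECAM1, COL1A1, ALB and INS) summed to at most 0.605 FPKM in every library. In Vector the lung markers SFTPC (0 FPKM) and NKX2-1 (0.0369 FPKM) and the epithelial genes EPCAM and CDH1 were absent or nearly so. Of the same list, the epithelial keratins KRT18 and KRT8 stood at 63.2 and 16.2 FPKM, KRT7 at 0.0996 and VIM at 702, all in Vector. The labelled lung origin thus rests on the label. In bulk RNA, fewer cells of a kind and less RNA per cell cannot be told apart.

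More cytosolic genes rose than fell in KO1, and more fell than rose in KO2. CARS, SARS and YARS were called in opposite directions in the clones, DARS fell and QARS rose in both, and 5 of 20 were called in no comparison. In KO1, 7 of 20 cytosolic genes rose and 1 fell against Vector, with a median change of 0.24 on the log2(FPKM + 1) scale. In KO2, 1 rose and 10 fell, with a median of -0.36. Between the clones themselves 0 were higher and 11 lower in KO2 than in KO1, with a median of -0.54. Calls are at a Benjamini-Hochberg adjusted p under 0.05 in limma, fitted over 16426 genes. Over all of these, 34.1% were called in KO1 (17.4% higher, 16.7% lower), 27.9% in KO2 (12.9% higher, 15.0% lower) and 30.9% between the clones (14.5% higher, 16.4% lower). The medians over all genes were 0.01, 0.00 and -0.02. The share of the cytosolic set that fell in KO2, 10 of 20, thus stands beside 15.0% of all genes. The share that was lower in KO2 than in KO1, 11 of 20, stands beside 16.4%. With a minimum mean of 5 FPKM, which all 20 passed, the 7478 genes tested leaned more in these directions. Of them 1836 were higher and 1104 lower in KO1 (median 0.09), and 1025 and 1382 in KO2 (-0.04). Between the clones 933 were higher and 1906 lower in KO2 (-0.14). The cytosolic genes there had 7 and 1, 1 and 9, and 1 and 11. Both clones were compared with the same Vector libraries, so their changes are not independent.

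Leaving out Vector replicate 2, KO1 replicate 1 or KO1 replicate 2 reduced the cytosolic calls in KO1 to 5 (4 higher, 1 lower), and leaving out KO2 replicate 2 reduced those in KO2 to 7, all lower. Without both libraries that stood apart, 9 rose and 5 fell in KO1, 4 rose and 14 fell in KO2, and 1 was higher and 16 lower in KO2 than in KO1. Many more of all genes were called in that setting too, 57.0% in KO1 (29.8% higher, 27.1% lower), 49.7% in KO2 (24.2% and 25.5%) and 47.8% between the clones (21.4% and 26.4%). Scaling each library to equal FPKM sums gave 6 higher and 3 lower cytosolic genes in KO1 and 1 and 10 between the clones, with medians of 0.15 and -0.43. That scaling moved the share of higher genes among all calls from 51.1% to 39.3% in KO1 and from 47% to 61.2% between the clones.

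**Figure D1:**
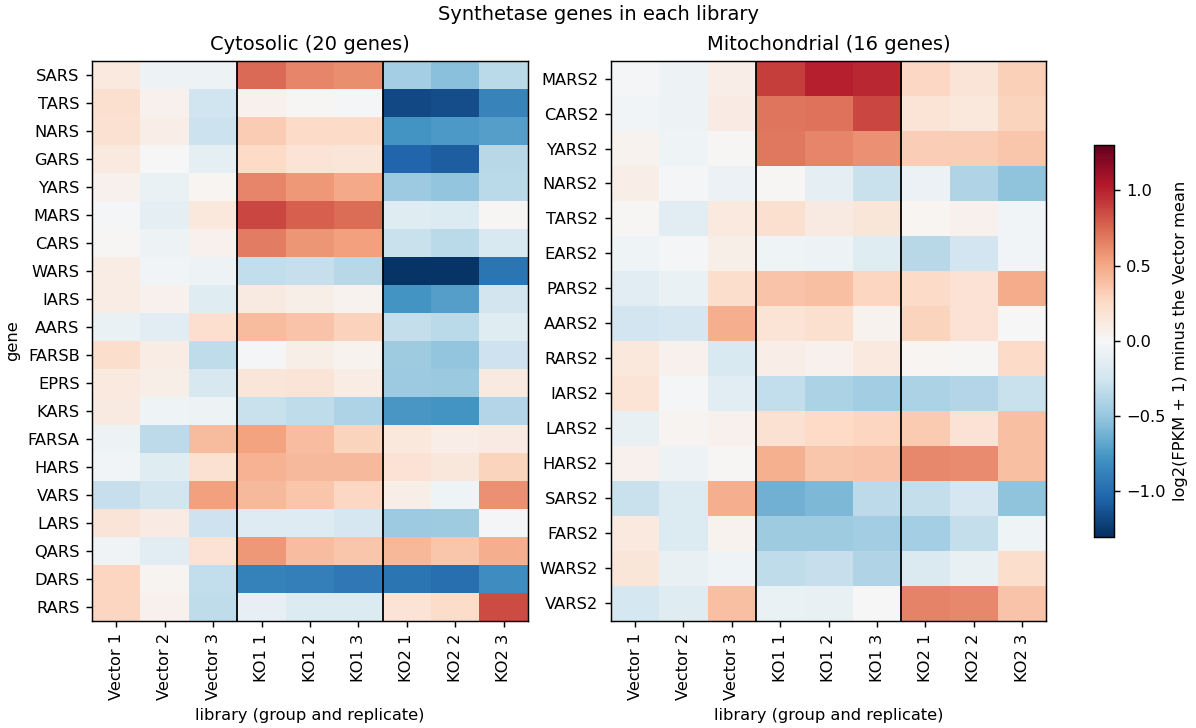
Each row is a synthetase gene and each column a library, and the colour is log2(FPKM + 1) minus the mean of the 3 Vector libraries. In the cytosolic panel (20 genes) most KO1 columns are red and most KO2 columns blue, with KO2 replicate 3 paler than the other KO2 libraries, and the mitochondrial panel (16 genes) has no such block.

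The summed level shows the same order library by library. The 20 cytosolic genes together stood at 1235.5, 1137.5 and 1117 FPKM in Vector, at 1398.5, 1340.5 and 1298.7 in KO1, and at 830.7, 817.6 and 1050 in KO2. Each KO1 library lay above all Vector libraries and each KO2 library below them. KO2 replicate 3 was the KO2 library nearest to Vector. The 16 mitochondrial genes together stood at 175.3, 160.9 and 167.6 FPKM in Vector, at 184.5, 179.2 and 177.1 in KO1, and at 172.5, 171.5 and 177.7 in KO2. Here KO1 lay above Vector by little (lowest 177.1 against highest 175.3), and KO2 overlapped both. These sums are on the deposited scaling. Scaling to equal FPKM sums moved the median change in KO1 from 0.12 to 0.03 for mitochondrial genes and from 0.24 to 0.15 for cytosolic genes. Cytosolic synthetases ranged from 9.81 (CARS) to 133 FPKM (GARS) in Vector, with a median of 53.1, and mitochondrial ones from 1.44 (SARS2) to 54.8 FPKM (IARS2), with a median of 5.47.

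**Figure D2:**
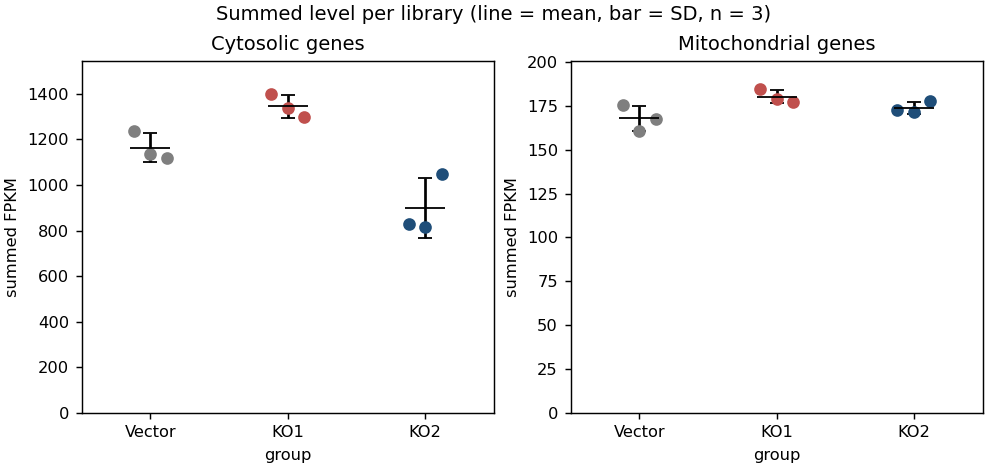
Points are the summed FPKM of the cytosolic (left) and mitochondrial (right) synthetases in each library, the line is the group mean and the bar the SD (n = 3), and both axes start at 0. Cytosolic sums run from 1298.7 to 1398.5 in KO1 and from 817.6 to 1050 in KO2, on either side of Vector (1117 to 1235.5), whereas mitochondrial sums stay between 160.9 and 184.5.

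The called cytosolic genes fell into several kinds by the direction of change. The first kind rose in KO1 and was lower in KO2 than in KO1, in enzymes for serine, tyrosine, cysteine, methionine and alanine. SARS, the seryl-tRNA synthetase, which also charges the tRNA for selenocysteine (ENSG00000031698, chr1:109213918-109238169 of hg38), stood at 97.5, 85.0 and 84.9 FPKM in Vector. KO1 gave 149, 139 and 136 and KO2 gave 65.0, 60.9 and 69.4 FPKM, and no group overlapped another. The log2 change was 0.66 in KO1 (SE 0.11, limma adjusted p = 0.00135) and -0.45 in KO2 (SE 0.11, limma adjusted p = 0.0126). The KO2 call was lost without KO2 replicate 2 (-0.40, limma adjusted p = 0.0562). YARS, the tyrosyl enzyme (ENSG00000134684, chr1:32775237-32818153), stood at 39.3, 35.7 and 38.6 FPKM in Vector, at 59.2, 56.3 and 53.6 in KO1 and at 26.9, 26.3 and 29.5 in KO2. Its groups were also fully separate, with changes of 0.56 (SE 0.09, limma adjusted p = 0.00192) and -0.44 (SE 0.09, limma adjusted p = 0.00813). CARS, the cysteinyl enzyme (ENSG00000110619, chr11:3000922-3057613), was the cytosolic gene with the lowest level, at 9.90, 9.27 and 10.2 FPKM in Vector. It measured 16.1, 15.1 and 14.6 FPKM in KO1 and 7.81, 7.48 and 8.41 in KO2. Its rise was 0.59 (SE 0.09, limma adjusted p = 0.00114), beside a median of 0.33 for genes within 5 Mb, and with that median subtracted it stood at 0.26 (limma adjusted p = 0.148). The CARS value of -0.28 in KO2 (SE 0.09, limma adjusted p = 0.0451) was called narrowly, and 7 of the 9 fits that left out 1 library lost the call (limma adjusted p up to 0.149, without KO2 replicate 2).

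MARS, the methionyl enzyme, which also serves the start of translation (ENSG00000166986, chr12:57475445-57517569), showed the largest rise of the cytosolic set in KO1. Its FPKM went from 52.7, 49.3 and 59.1 in Vector to 98.4, 92.6 and 89.4 in KO1, with no overlap (log2 0.79, SE 0.11, limma adjusted p = 0.000596). In KO2 it measured 48.0, 47.3 and 54.2, overlapping Vector (-0.10, limma adjusted p = 0.511). Of the MARS exon bases 13.3% also belong to other genes, among them DDIT3, a stress factor at its 3′ end, and the strand setting of the counting is not given in the sources used here. DDIT3 had values of 0.82 in KO1 and -0.93 in KO2 that did not pass (limma adjusted p = 0.0779 and 0.059), and its part in the MARS value was not tested. AARS, the alanyl enzyme (ENSG00000090861, chr16:70252295-70289543), stood at 85.3, 82.2 and 105 FPKM in Vector, at 120, 117 and 111 in KO1 and at 72.7, 70.8 and 80.7 in KO2. These groups did not overlap, yet the change in KO1 was small (0.36, SE 0.12, limma adjusted p = 0.0453). It lost its call in 7 of 9 fits without 1 library (limma adjusted p up to 0.151, without Vector replicate 2), and the KO2 value of -0.27 was not called (limma adjusted p = 0.121).

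The second kind fell in KO2 and was not called in KO1. WARS, the tryptophanyl enzyme, also known for its induction by interferon (ENSG00000140105, chr14:100333788-100376805), stood at 45.9, 41.7 and 40.9 FPKM in Vector and at 17.1, 17.1 and 21.7 in KO2. This was the largest fall of any member (log2 -1.17, SE 0.11, limma adjusted p = 0.000109). Of the WARS exon bases 10.6% also belong to genes of the other strand, so its reads there are uncertain. KO1, at 34.1, 34.6 and 33.0 FPKM, lay below Vector without overlap, but -0.33 was just not called (limma adjusted p = 0.0506). It was called once both libraries that stood apart were left out (-0.36, limma adjusted p = 0.00141). However, genes within 5 Mb of WARS had a median of -0.52 in KO1. Across the settings tried, the WARS value in KO1 ran from -0.43 to 0.20, so its direction there was not stable. TARS, the threonyl enzyme (ENSG00000113407, chr5:33440696-33469539), stood at 60.9, 54.6 and 43.8 FPKM in Vector, at 54.8, 53.1 and 51.6 in KO1 and at 22.8, 23.1 and 28.4 in KO2. KO1 lay inside the Vector range, and KO2 far under it (-1.06, SE 0.14, limma adjusted p = 0.000614). Genes within 5 Mb of TARS had a median of -0.53 in KO2, and TARS stood at -0.53 with that median subtracted, still called. NARS, the asparaginyl enzyme (ENSG00000134440, chr18:57600656-57622213), stood at 103, 95.2 and 73.6 FPKM in Vector, at 113, 107 and 107 in KO1 and at 51.8, 52.9 and 54.2 in KO2. The fall in KO2 was -0.75 (SE 0.13, limma adjusted p = 0.00272), and the KO1 libraries, though all above Vector, gave 0.28 (limma adjusted p = 0.118).

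GARS, the glycyl enzyme of both compartments and the most abundant member in Vector (ENSG00000106105, chr7:30594681-30634033), stood at 145, 132 and 121 FPKM in Vector, at 159, 150 and 148 in KO1 and at 64.1, 62.3 and 103 in KO2. KO2 replicate 3 lay between the other KO2 libraries and Vector. The change of -0.82 (SE 0.18, limma adjusted p = 0.00976) became -1.12 without the libraries that stood apart (limma adjusted p = 5.03e-05). IARS, the isoleucyl enzyme (ENSG00000196305, chr9:92210207-92293756), had the same shape, with 127, 123 and 106 FPKM in Vector, 128, 125 and 122 in KO1, and 68.7, 71.7 and 100 in KO2. Its change of -0.58 (SE 0.15, limma adjusted p = 0.0204) lost its call in 4 of 9 fits without 1 library (limma adjusted p up to 0.0753, without KO2 replicate 2) and was -0.82 without both apart libraries (limma adjusted p = 6.13e-05). KARS, the lysyl enzyme of both compartments (ENSG00000065427, chr16:75627474-75648643), stood at 62.1, 54.8 and 54.6 FPKM in Vector, at 46.6, 45.3 and 42.9 in KO1 and at 33.4, 32.8 and 43.6 in KO2. Both clones lay below Vector, and the fall passed in KO2 (-0.64, SE 0.13, limma adjusted p = 0.00563) and not in KO1 (-0.34, limma adjusted p = 0.066). The direct test between the clones did not call KARS (KO2 minus KO1 -0.30, limma adjusted p = 0.103). The neighbours of KARS within 5 Mb had a median of -0.43 in KO2, and with it subtracted KARS stood at -0.21 (limma adjusted p = 0.252). Its head-to-head partner TERF2IP, a telomere protein gene, had -0.66 in KO2.

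The third kind moved alike in both clones or in KO1 alone. DARS, the aspartyl enzyme (ENSG00000115866, chr2:135906677-135986100), was the cytosolic gene that fell in KO1. It stood at 50.3, 42.3 and 32.9 FPKM in Vector, at 21.9, 21.8 and 21.2 in KO1 and at 20.8, 20.4 and 23.1 in KO2. The clones were level with each other and both under the lowest Vector library (-0.90 and -0.91, each SE 0.14, limma adjusted p = 0.00141 and 0.00171). QARS, the glutaminyl enzyme (ENSG00000172053, chr3:49095932-49105135), was the cytosolic gene that rose in KO2. It stood at 49.5, 46.0 and 58.5 FPKM in Vector, at 75.7, 68.0 and 66.0 in KO1 and at 69.3, 65.9 and 71.0 in KO2 (0.44 and 0.42, each SE 0.12, limma adjusted p = 0.0165 and 0.0241). Each QARS call was lost in 4 of 9 fits without 1 library, with a limma adjusted p of up to 0.0752 in KO1 (without KO1 replicate 1) and 0.0874 in KO2 (without Vector replicate 2). DARS and QARS, 2 enzymes of the multisynthetase complex, thus went opposite ways in both clones. Between the clones DARS differed by -0.01 and QARS by -0.02 (limma adjusted p = 0.955 and 0.911).

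HARS and HARS2, the cytosolic and mitochondrial histidyl enzymes, lie head to head on chromosome 5, with starts 436 bases apart and some exon bases in common. HARS (ENSG00000170445, chr5:140673904-140691862) stood at 11.8, 10.8 and 14.1 FPKM in Vector, at 17.0, 16.6 and 16.6 in KO1 and at 14.0, 13.6 and 15.1 in KO2. HARS2 (ENSG00000112855, chr5:140691426-140699318) stood at 9.95, 9.08 and 9.63 in Vector, at 13.5, 12.5 and 12.6 in KO1 and at 15.3, 15.2 and 12.8 in KO2. Both rose in KO1 by nearly the same amount, HARS by 0.43 (SE 0.11, limma adjusted p = 0.0146) and HARS2 by 0.39 (SE 0.10, limma adjusted p = 0.0139). In KO2 HARS2 rose by 0.55 (SE 0.10, limma adjusted p = 0.00357), and HARS, at 0.21, was not called (limma adjusted p = 0.185). Of the HARS2 exon bases 15.8% belong to other genes too, so reads there cannot be told apart without strand. In KO1 the HARS call was lost in 3 of 9 fits without 1 library (limma adjusted p up to 0.0575, without Vector replicate 2) and the HARS2 call in 2 (up to 0.0627, without KO1 replicate 1).

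The remaining cytosolic genes, EPRS, FARSA, FARSB, LARS, RARS and VARS, passed in neither clone against Vector, with values from -0.18 (LARS) to 0.40 (FARSA) in KO1 and from -0.41 (FARSB) to 0.42 (RARS) in KO2. EPRS joins glutamate and proline to their tRNAs in 1 protein, FARSA and FARSB are the subunits of the phenylalanyl enzyme, and LARS, RARS and VARS charge leucine, arginine and valine. Their libraries were less alike within a group. RARS in KO2 was at 59.2, 62.1 and 94.7 FPKM and VARS in Vector at 38.0, 39.7 and 68.1, with replicate 3 the high one in each. Without both apart libraries EPRS (-0.58), FARSB (-0.65) and LARS (-0.60) fell in KO2 and VARS (0.27) and FARSA (0.32) rose there, while RARS stood at 0.04. FARSB was the member of this group that differed between the clones (-0.45, limma adjusted p = 0.0435). That call was lost in 6 of 9 fits without 1 library (limma adjusted p up to 0.13, without KO2 replicate 2).

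**Figure D3:**
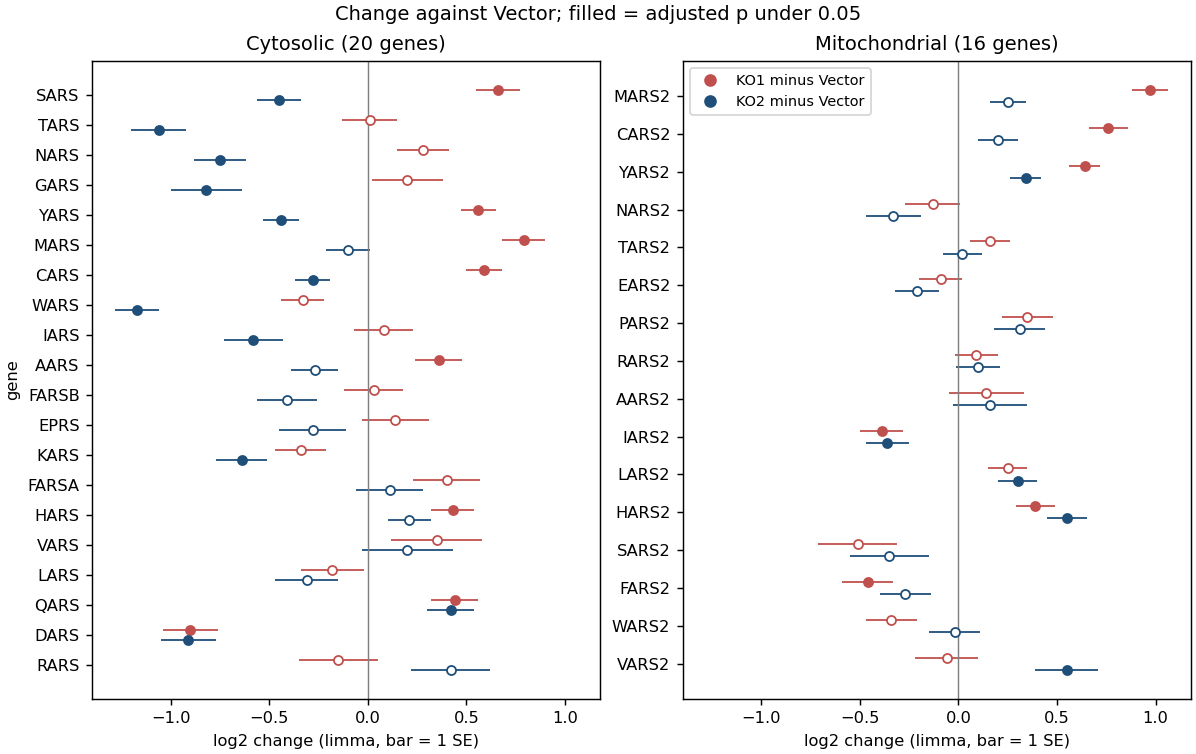
Log2 change against Vector for KO1 (red) and KO2 (blue), for the cytosolic (left) and mitochondrial (right) synthetases, with bars of 1 SE and filled points where the limma adjusted p is under 0.05. Most blue points of the cytosolic panel lie left of the red point of the same gene, down to -1.17 for WARS, and DARS and QARS have both points together.

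Sorted by lists named with earlier results of these data known, the genes that reviews often give as ATF4 targets held most of the cytosolic calls between the clones. Of these 13 (AARS, CARS, EPRS, GARS, IARS, LARS, MARS, NARS, SARS, TARS, VARS, WARS and YARS), 5 rose and 0 fell in KO1, 0 rose and 8 fell in KO2, and 0 were higher and 10 lower in KO2 than in KO1. Their medians were 0.28, -0.44 and -0.87. Of the other 7 cytosolic genes 2 rose and 1 fell in KO1, 1 rose and 2 fell in KO2, and 1 was lower in KO2 than in KO1, with medians of 0.03, 0.11 and -0.22. The difference between these lists was not tested. Over all genes 17.4% were higher and 16.7% lower in KO1, 12.9% and 15.0% in KO2, and 14.5% and 16.4% between the clones. Without both apart libraries the 13 had 6 higher and 2 lower in KO1, 1 and 11 in KO2, and 0 and 13 between the clones. Of all genes 57.0%, 49.7% and 47.8% were called there. The 8 synthetases of the multisynthetase complex, a cytosolic assembly of synthetases on scaffold proteins, had 2 higher and 1 lower in KO1, 1 and 3 in KO2, and 0 and 2 between the clones. In KO1 and between the clones these counts lay near the shares of all genes. The enzyme classes differ in the fold of the catalytic domain. Class I (9 genes) had 4 higher and 0 lower in KO1 and 1 and 4 in KO2, with medians of 0.35 and -0.28. Class II (10 genes) had 3 and 1, then 0 and 6, with medians of 0.24 and -0.54. The difference between the classes was not tested. EPRS, which joins both classes, was counted in neither.

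The difference between the clones, tested directly, was largest in SARS (KO2 minus KO1 log2 -1.11, SE 0.11, limma adjusted p = 9.03e-05), TARS (-1.08), GARS and NARS (-1.03 each) and YARS (-1.01, SE 0.09, limma adjusted p = 8.97e-05). MARS (-0.90), CARS (-0.87), WARS (-0.84), IARS (-0.65), AARS (-0.63) and FARSB (-0.45) were also lower in KO2. Of these 11 calls, 10 were made in every one of the settings tried, all but that of FARSB. All 7 cytosolic genes with the response element letters were among the 11, with a median of -0.90, against 3 of 9 cytosolic genes whose promoter entry lacked them (SARS, WARS and FARSB; median -0.30). YARS, LARS, VARS and DARS had no entry. The 7 genes were all on the list of ATF4 targets above. Of the listed genes with an entry 7 of 10 held the letters, against 0 of 6 other cytosolic genes. Both sortings thus rest largely on the same genes. Against Vector, 3 of the 7 genes with the letters and 3 of the 9 without them rose in KO1 (medians 0.28 and 0.14). In KO2, 5 of 7 and 3 of 9 fell (medians -0.58 and -0.28). Over all tested genes with a promoter entry, 34.3% of 251 with the letters and 19.5% of 9621 without them were lower in KO2 than in KO1. Of the same genes, 29.9% with the letters and 20.3% without them rose in KO1, and 27.5% and 17.4% fell in KO2. The letters were looked up after the changes were known, and their part in the difference was not tested.

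**Figure D4:**
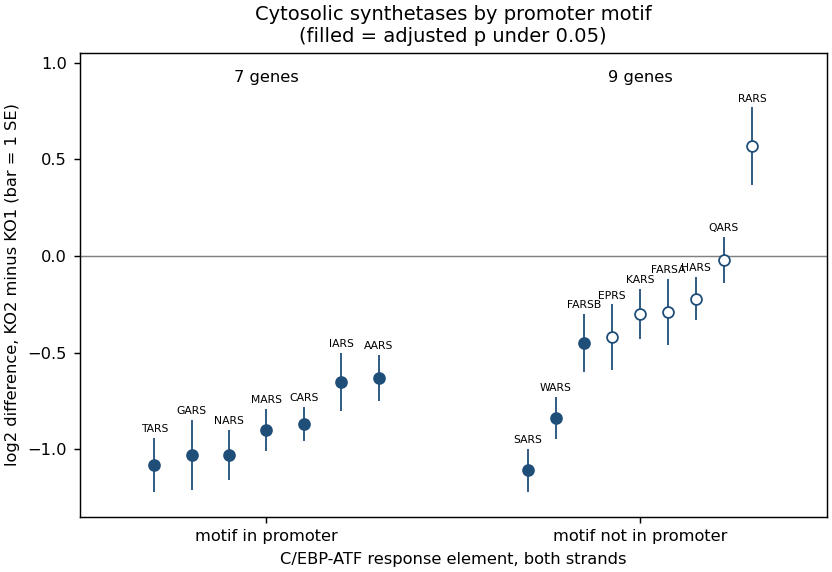
Each point is a cytosolic synthetase with a RefSeq promoter entry, placed by whether the response element letters occur there, and its height is the KO2 minus KO1 log2 difference with a bar of 1 SE. All 7 genes with the letters are filled (limma adjusted p under 0.05) and lie between -1.08 and -0.63, while the 9 without them spread from -1.11 (SARS) to 0.57 (RARS).

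The mitochondrial set had no common direction. In KO1, 4 of 16 genes rose and 2 fell (34.1% of all genes were called), in KO2 4 rose and 1 fell (27.9%), and between the clones 1 was higher and 3 lower in KO2 (30.9%). The medians were 0.12, 0.13 and 0.01. These shares lie near those of all genes. The KO1 count became 10 without Vector replicate 3. The KO2 count fell to 1 without Vector replicate 2, to 2 without Vector replicate 1, any 1 KO1 library, KO2 replicate 1 or KO2 replicate 2, and rose to 8 without Vector replicate 3. The count between the clones fell to 2 without KO1 replicate 1 or 2 or KO2 replicate 1 or 2. Without both apart libraries 8 rose and 3 fell in KO1, 7 and 3 in KO2, and 2 and 4 between the clones, where 57.0%, 49.7% and 47.8% of all genes were called. With equal FPKM sums 3 rose and 3 fell in KO1, and 2 were higher and 2 lower in KO2 than in KO1.

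MARS2, the mitochondrial methionyl enzyme (ENSG00000247626, chr2:197705369-197708387), showed the largest rise of any member. It stood at 5.47, 5.24 and 5.92 FPKM in Vector, at 11.2, 12.2 and 11.9 in KO1 and at 6.88, 6.34 and 7.12 in KO2. The KO1 libraries lay far above Vector (mean 11.8 ± 0.502 against 5.55 ± 0.343 FPKM, SD, n = 3). The change was 0.97 in KO1 (SE 0.09, limma adjusted p = 6.09e-05). In KO2, which also lay above Vector, the value of 0.25 did not pass (limma adjusted p = 0.0682). CARS2, the cysteinyl enzyme (ENSG00000134905, chr13:110641412-110713603), stood at 1.82, 1.77 and 2.11 FPKM in Vector, at 3.69, 3.74 and 4.30 in KO1 and at 2.27, 2.19 and 2.54 in KO2. It rose in KO1 by 0.76 (SE 0.10, limma adjusted p = 0.000492). Genes within 5 Mb of CARS2 had a median of 0.54, and with that subtracted it stood at 0.22 (limma adjusted p = 0.117). Its head-to-head partner ING1, a growth inhibitor gene, changed by 0.73. YARS2, the tyrosyl enzyme and the mitochondrial gene with the response element letters (ENSG00000139131, chr12:32727490-32755902), stood at 25.9, 24.1 and 25.4 FPKM in Vector, at 41.0, 39.7 and 38.5 in KO1 and at 31.6, 31.7 and 32.5 in KO2. Its groups were fully separate, and it rose in both clones, by 0.64 (SE 0.08, limma adjusted p = 0.000492) and 0.34 (SE 0.08, limma adjusted p = 0.0171). Its KO2 call was lost in 3 of 9 fits without 1 library (limma adjusted p up to 0.0639, without Vector replicate 2), and with neighbours subtracted the values were 0.28 and 0.12 (limma adjusted p = 0.076 and 0.447).

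IARS2, the isoleucyl enzyme and the most abundant of the mitochondrial set (ENSG00000067704, chr1:220094102-220148041), fell in both clones. It stood at 61.7, 53.6 and 49.0 FPKM in Vector, at 43.6, 40.8 and 39.7 in KO1 and at 40.7, 41.7 and 44.3 in KO2, each clone below Vector (-0.39 and -0.36, each SE 0.11, limma adjusted p = 0.0217 and 0.0345). Fits without 1 library lost the KO1 call in 4 of 9 (limma adjusted p up to 0.0866, without KO1 replicate 3) and the KO2 call in 7 of 9 (up to 0.106, without Vector replicate 1). FARS2, the phenylalanyl enzyme (ENSG00000145982, chr6:5261044-5829192), stood at 3, 2.24 and 2.79 FPKM in Vector, at 1.65, 1.65 and 1.68 in KO1 and at 1.69, 1.96 and 2.53 in KO2. It fell in KO1 (-0.46, SE 0.13, limma adjusted p = 0.0214), where genes within 5 Mb had a median of -0.57 and its head-to-head partner LYRM4, an iron-sulfur cluster factor, had -0.62. Relative to those neighbours FARS2 was at 0.11 (limma adjusted p = 0.546), and 4 of 9 fits without 1 library lost the call (limma adjusted p up to 0.0748, without Vector replicate 1).

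VARS2, the valyl enzyme (ENSG00000137411, chr6:30908242-30926459), was the member that was higher in KO2 than in KO1. It stood at 7.6, 8.08 and 12.2 FPKM in Vector, at 8.54, 8.45 and 9.10 in KO1 and at 14.8, 14.6 and 12.1 in KO2. The high Vector library was replicate 3, which reached the lowest KO2 library. VARS2 rose in KO2 by 0.55 (SE 0.16, limma adjusted p = 0.0317), and 7 of 9 fits without 1 library lost that call (limma adjusted p up to 0.108, without Vector replicate 1). Of its exon bases 22% also belong to another gene, GTF2H4. LARS2, the leucyl enzyme (ENSG00000011376, chr3:45388506-45549421), stood at 2.58, 2.90 and 2.98 FPKM in Vector, at 3.39, 3.57 and 3.64 in KO1 and at 3.83, 3.34 and 3.99 in KO2. Both clones lay above Vector, and the call was made in KO2 (0.30, SE 0.10, limma adjusted p = 0.0416) and not in KO1 (0.25, limma adjusted p = 0.0732). The KO2 call was lost in 7 of 9 fits without 1 library (limma adjusted p up to 0.125, without Vector replicate 1). The other 8 genes, AARS2, EARS2, NARS2, PARS2, RARS2, SARS2, TARS2 and WARS2, passed in neither clone, with values from -0.51 (SARS2) to 0.35 (PARS2). SARS2 stood near 1 FPKM, and 57.0% of its exon bases belong to other genes too, so its value is uncertain.

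For 13 amino acids the files hold a cytosolic and a mitochondrial gene of matching name. With 1 added to FPKM before the log2, the cytosolic gene had the lower change in KO2 against Vector in 12 of the 13 pairs. RARS and RARS2 were the exception. KO2 against KO1 gave 12 of 13 as well, and KO1 against Vector 6 of 13. For SARS and SARS2 in KO2 against Vector, the direction depended on the added 1 (-0.45 and -0.35 with it). Their plain FPKM ratio was 61.8 in Vector and 75.2 in KO2, so SARS2 fell more by that measure. SARS2 averaged only 1.44 FPKM in Vector and 0.866 in KO2. The pairs for methionine, cysteine and tyrosine rose together in KO1, MARS and MARS2 by 0.79 and 0.97, CARS and CARS2 by 0.59 and 0.76, and YARS and YARS2 by 0.56 and 0.64. In KO2 YARS fell by 0.44 and YARS2 rose by 0.34, CARS fell by 0.28 with CARS2 at 0.20 and not called (limma adjusted p = 0.165), and neither MARS (-0.10) nor MARS2 (0.25) was called. The level of YARS was 1.51 times that of YARS2 in Vector, 1.42 times in KO1 and 0.863 times in KO2, on the FPKM scale, which is per exon length. For TARS and TARS2 the ratio was 6.32, 5.6 and 2.92, and for WARS and WARS2 5.96, 6.19 and 2.61. These ratios are descriptions, and the difference between the sets was not tested.

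Genes around the synthetases were counted from lists chosen with earlier results known. The shares of all genes to read these counts against are 17.4% higher and 16.7% lower in KO1, 12.9% and 15.0% in KO2, and 14.5% and 16.4% between the clones. Of 22 tested factors and targets of the amino acid response, 9 rose and 4 fell in KO1, 0 rose and 14 fell in KO2, and 0 were higher and 17 lower in KO2 than in KO1, with medians of 0.34, -0.80 and -1. Without both apart libraries these counts were 14 and 6, 2 and 14, and 1 and 20, where 57.0%, 49.7% and 47.8% of all genes were called. ATF4 mRNA itself was not called (0.00 in KO1 and -0.18 in KO2, limma adjusted p = 0.999 and 0.425), although ATF4 is controlled mainly in translation and its protein was not measured. CEBPB, a C/EBP factor, rose by 1.44 in KO1 and fell by 0.81 in KO2, and SESN2, a leucine sensor, rose by 1.41 and fell by 0.89. TRIB3, a pseudokinase that dampens ATF4, rose by 1.3 and fell by 1.36. CEBPG, a C/EBP partner of ATF4, fell in both (-0.95 and -2.24), and so did ASNS, the asparagine synthetase (-0.49 and -1.37). Among 7 genes of eIF2 and its kinases and phosphatases 2 rose and 3 fell in KO1, and 0 rose and 1 fell in KO2. PPP1R15A, which brings a phosphatase to eIF2, rose by 2.23 in KO1 (-0.19 in KO2, limma adjusted p = 0.649), and PPP1R15B by 0.52. EIF2S1, the eIF2 subunit that is phosphorylated, fell by 0.99 and 0.89, and EIF2AK1, the heme-regulated kinase, fell by 0.31 in KO1. EIF2AK4, which codes for GCN2, fell by 0.28 in KO1 and had -0.22 in KO2 (limma adjusted p = 0.0446 and 0.108).

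Of 6 tested scaffolds and helpers, 0 rose and 2 fell in each clone. EEF1E1 and AIMP2, scaffold proteins of the multisynthetase complex, fell in KO2 by 0.67 and 0.32, while DTD2, which removes mischarged amino acids, fell by 1.11 and the synthetase-like gene TARSL2 by 0.31 in KO1. AIMP1, the remaining scaffold, had 0.11 and -0.34 (limma adjusted p = 0.555 and 0.0909). Among 19 genes of tRNA maturation and export 2 rose and 3 fell in KO1, and 2 rose and 5 fell in KO2. Beside the 34.1% and 27.9% of all genes called, the list stood below that share in KO1 and above it in KO2. TRNT1, which adds the CCA end that synthetases need, rose by 0.74 in KO1, and TSEN34, a splicing endonuclease subunit, by 0.54. The RNase P subunits POP4 (-0.83 and -1.16) and RPP40 (-1.11 and -0.98) fell in both clones, and XPOT, the tRNA exporter, fell by 0.89 in KO2. In the selenocysteine route 0 of 4 rose or fell in KO1, and in KO2 EEFSEC, its elongation factor, rose by 0.65 while SEPSECS and SEPHS2 fell by 0.88 and 0.70. Of 6 cytosolic elongation factors 1 rose in KO1 (EIF5A, by 0.59) and 1 fell in KO2 (EEF2K, the kinase of elongation factor EEF2, by 0.34). EEF1G was listed at 0 in all libraries, and whether this reflects expression or the assignment of reads was not tested.

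On the mitochondrial side, 1 of 13 translation factors rose and 2 fell in KO1, and 0 rose and 5 fell in KO2. MTRF1L, a release factor, rose by 0.36 in KO1, MTIF2, the initiation factor, fell by 0.68 and 0.77, and QRSL1, a subunit of the amidotransferase that makes glutaminyl-tRNA in mitochondria in place of a synthetase, fell by 0.61 in KO2. Of 77 tested mitochondrial ribosomal protein genes 15 rose and 4 fell in KO1, 5 rose and 11 fell in KO2, and 3 were higher and 18 lower in KO2 than in KO1, with medians of 0.14, -0.08 and -0.22. The called shares in both clones lie below the 34.1% and 27.9% of all genes. Without both apart libraries 36 rose and 14 fell in KO1, and 20 rose and 19 fell in KO2. In that setting 57.0% and 49.7% of all genes were called, and the shares of this list were not below them. The mitochondrial synthetases had medians of 0.12, 0.13 and 0.01 in the same comparisons. KRT8 and KRT18, keratin genes, rose in KO1 by 2.83 and 2.38, and their part in the synthetase values was not tested.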

How the data were processed

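RNA of 9 H1299 libraries (3 each of Vector, KO1 and KO2) was extracted with TRIzol, made into NEBNext Ultra libraries and read on an Illumina NovaSeq, as the labels' protocols state. The authors deposited FPKM values per gene. CASAVA 1.6, HISAT2 2.0.5, featureCounts 1.5.0-p3 and hg38 are named in the submitters' processing notes. For their options and strand setting, not given in the sources used here, no assumption was made. All 58735 identifiers were found in GENCODE 29, and 99.95% of names were equal. FPKM times exon length gave whole reads for 100.0% of values within 0.02 reads, and the scaling in the FPKM equalled median-of-ratios size factors (ratio 1.0).

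Values were taken as log2(FPKM + 1), which understates changes of low genes. The 16426 genes averaging 0.5 FPKM or more were fitted with limma 3.58.1 (R 4.3.3, trended), with all 9 libraries and the group as the only term, and p-values were Benjamini-Hochberg adjusted over all genes in each comparison. The procedure was tested on simulated data with the spread of the KO1 libraries. Vector replicate 3 and KO2 replicate 3 differed far more from their groups, so that test gives no error rate at their spread. Neighbour medians are over genes within 5 Mb.

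The members and lists were chosen with earlier results of these data known. Per-library values are given for the called cytosolic (up to 8) and mitochondrial members (up to 6) with the largest change in each clone, and for HARS and HARS2. From each other list up to 2 called higher and 2 called lower genes with the largest change in either clone are named. AIMP1, AIMP2, TARSL2, TRIB3, XPOT, EIF2AK4, ATF4, DDIT3, the head-to-head partners, the marker genes, other genes named beside these and the promoter calls over all genes were chosen after values were seen. Of the members, 20 share exon bases with another gene (5 above 10%) and 11 have a named pseudogene, so their reads may be split. Alternatives covered the pseudocount, filters, scaling, limma-voom, the groups fitted, the replicate block, neighbours and left-out libraries.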

Additional observations from a re-analysis of the deposited data

Results flagged for a closer look

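The members named here differed between the knockout clones in a direct test (KO2 minus KO1, log2, limma with Benjamini-Hochberg adjustment, n = 3 libraries each). Lower in KO2 were SARS (-1.11), TARS (-1.08), GARS (-1.03), NARS (-1.03), YARS (-1.01), MARS (-0.90), CARS (-0.87), WARS (-0.84), IARS (-0.65), AARS (-0.63) and FARSB (-0.45) of the cytosolic set. MARS2 (-0.72), CARS2 (-0.56) and YARS2 (-0.30) of the mitochondrial set were lower too, and VARS2 (0.61) was higher. The limma adjusted p ran from 8.97e-05 (YARS) to 0.0435 (FARSB). Each clone is a single line, so the difference is between these lines. Fits without 1 library lost the call of FARSB in 6 of 9 (limma adjusted p up to 0.13, without KO2 replicate 2), of YARS2 in 5 (0.101, without KO1 replicate 1) and of VARS2 in 4 (0.065, without KO1 replicate 2). With the median of genes within 5 Mb subtracted, CARS2 stood at -0.02 (limma adjusted p = 0.89).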

How the results depend on the processing

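Leaving out 1 library gave 5 to 11 cytosolic calls in KO1, 7 to 15 in KO2 and 10 to 14 between the clones, and 4 to 10, 1 to 8 and 2 to 4 mitochondrial calls. Over all genes it gave 3712 to 7286, 3157 to 6487 and 3345 to 6733. Without Vector replicate 3 and KO2 replicate 3 together, cytosolic calls numbered 14, 18 and 17 in KO1, in KO2 and between the clones, mitochondrial calls 11 in KO1 and 10 in KO2, and calls over all genes 9278, 8090 and 7787. A minimum mean of 5 FPKM tested fewer genes and called 2940, 2407 and 2839. A fit of only the KO2 and Vector libraries called 7 cytosolic, 1 mitochondrial and 3055 of all genes, and no filter on low values left 3 mitochondrial calls in KO2; the cause was not tested. With the neighbours' median subtracted, FARS2 turned to 0.11 in KO1 (limma adjusted p = 0.546) and EARS2 from -0.12 to 0.28 between the clones (limma adjusted p = 0.0348). Of the called cytosolic members 4 of 8, 6 of 11 and 10 of 11 were called in every setting, and of the mitochondrial ones 1 of 6, 1 of 5 and 1 of 4. Scaling by library size alone, chosen after seeing the data, gave 9 cytosolic calls in KO1.

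Same-numbered libraries of different groups did not deviate together (r from -0.202 to 0.142), so the numbers were not taken to pair them. With the replicate block, cytosolic calls were 7, 10 and 10 in KO1, in KO2 and between the clones, and mitochondrial calls 6, 2 and 3.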
